A study of Mus musculus with 9 samples.

Results

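Ischemia-reperfusion (I/R) was compared with sham surgery in the mouse heart at the level of the whole tissue sample, with the UMIs of all nuclei of a sample added together and no division by cell type. The 6 samples of this comparison, 3 sham and 3 I/R, were taken from a series of 9. Each was a heart from a separate C57BL/6 mouse, 8 weeks old when supplied, profiled by single-nucleus RNA-seq (sNuc-seq), in which a droplet gives each nucleus a barcode and each captured transcript a unique molecular identifier (UMI). Where p-values are given, n is 3 sham and 3 I/R mice. The sham group was gavaged with vehicle over 7 days before surgery in which the needle was passed but the artery was not tied. The I/R group had the same 7 days of vehicle, then 30 min of ligation of the left anterior descending coronary artery (LAD) and 24 h of restored flow. The other 3 samples came from mice with the same injury after 7 days of Shexiang Baoxin Pill (SBP, named MUSKARDIA in the labels). They entered the fit to share the estimate of spread, and also the scaling of the samples and the filter on low values. Per the study, the tissue came from the part of the heart below the ligation.

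When a blocked coronary artery is reopened, heart muscle that survived the ischemia is exposed to oxidants and calcium overload, and part of it dies. Neutrophils and monocytes enter within hours to days, macrophages clear dead cells, and fibroblasts lay down provisional matrix and later collagen. The surviving muscle changes its use of fuel and its expression of contractile proteins and ion channels, and the tissue also carries a circadian clock, a loop of transcription factors that runs in nearly all cells.

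The 6 samples held 33300 nuclei and 91549251 UMIs, with 4576 to 6418 nuclei and 10329520 to 18205985 UMIs per sample. The study's supplement gives a higher base quality for every sham library than for every other library of the series, before and after read filtering. The part of this in the results below was not tested, and in this design it cannot be told apart from that of the surgery. The median per nucleus was 1540 to 1886 UMIs in sham and 1836 to 2031 UMIs in I/R. Any 2 of the 6 libraries shared at most 14 nuclear barcodes and, in another pair, at most 0.251% of those of the smaller library. Levels are given as CPM, the UMIs of a gene per 1000000 UMIs of the sample, with the total adjusted by TMM (trimmed mean of M values) factors. Differences are log2 fold changes of log2(CPM + 1), always I/R minus sham, and the added 1 makes the change of low genes look smaller. Calls required an adjusted p (limma, Benjamini-Hochberg over all genes tested) of at most 0.05 together with an absolute log2 fold change over 0.25.

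The tissue was checked against marker genes of 15 cell types, shown in the plot of marker lists. Summed over its 8 markers, the cardiomyocyte list was at 35145, 27303 and 34076 CPM in the sham samples and at 19353, 12528 and 18274 CPM in the I/R samples, a ratio of means of 0.52. The smooth muscle and pericyte list was at 401, 438 and 499 CPM in sham and at 313, 201 and 264 CPM in I/R. For the dendritic cell list the sums were 135, 134 and 155 CPM and 99.6, 77.9 and 89.3 CPM. In these 3 sums every I/R sample was below every sham sample. For the last 2 of them this rested on 1 gene each, found by leaving out each marker in turn, a step chosen after seeing the data. Without Abcc9, which cardiomyocytes also express, the smooth muscle and pericyte sum was at 135, 156 and 192 CPM in sham and 139.9, 110.5 and 118 CPM in I/R, and the groups overlapped. Without Zbtb46, which endothelial cells also express, the dendritic cell sum was at 20.6, 31.7 and 34.1 CPM and 42.2, 9.49 and 12.2 CPM, which overlapped as well. The cardiomyocyte sum stayed lower in every I/R sample without any 1 of its markers. The fibroblast list was at 1312, 1279.8 and 1616 CPM in sham and 2662, 2359.9 and 2623 CPM in I/R, the macrophage list at 495, 508 and 598 CPM and 1225, 1353 and 886 CPM, and the neutrophil list at 37.1, 19 and 31.4 CPM and 147, 394 and 115 CPM. Here every I/R sample was above every sham sample, with a neutrophil level in I/R replicate 2 well above that of the other I/R samples. Without its 3 collagen genes the fibroblast sum was at 1140.5, 1064 and 1433 CPM in sham and 804, 1055 and 1875 CPM in I/R, so that the other 5 markers overlapped between the groups, and I/R replicates 1 and 2 lay below every sham sample. The macrophage and neutrophil sums stayed higher in every I/R sample without any 1 of their markers. Without Csf3r, however, the neutrophil sum was at 25.1, 9.41 and 18.7 CPM in sham and 39.6, 302 and 60.6 CPM in I/R. Most of the sum in I/R replicate 1 thus came from that gene. The mesothelial list, at 8.13, 9.7 and 9.08 CPM and 11, 13.3 and 10.9 CPM, was also higher in every I/R sample, but overlapped when each nucleus was given equal weight or without Msln. The monocyte, endothelial, endocardial, T cell, B cell, Schwann, adipocyte and erythroid lists overlapped between the groups, except that with equal weight per nucleus every I/R sample was below sham in the B cell list. With 1 marker left out, the groups also stopped overlapping in the monocyte list (without Vcan, every I/R sample higher), the B cell list (without Ebf1, every I/R sample lower) and the Schwann list (without Scn7a, every I/R sample lower). The exact two-sided permutation p was 0.1 for each of the 7 lists without overlap, the smallest that 3 against 3 samples allow (0.214 after Benjamini-Hochberg adjustment over the 15 lists). In sums over a tissue, fewer nuclei of a type and less RNA per nucleus cannot be told apart, and this holds for every gene below.

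**Figure D1:**
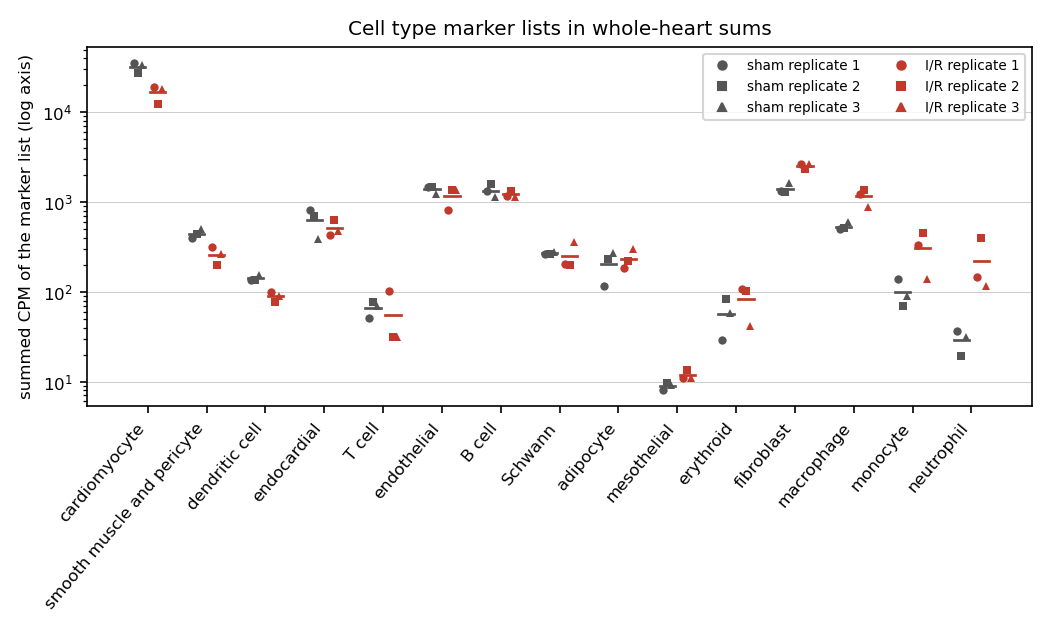
Summed CPM (log axis) of each cell type marker list in the 3 sham samples (grey) and the 3 I/R samples (red), with symbols for the replicate number and a line at the group mean. The lists are ordered by the ratio of I/R to sham, from the cardiomyocyte list (0.52) to the neutrophil list (7.5), and the groups do not overlap at either end.

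Of 23747 genes in the tables, 16056 passed the filter on low values and were tested. In I/R, 956 genes rose (5.95% of those tested) and 871 fell (5.42%). The increases were the larger ones, with a median of 1.20 on the log2 scale against 0.893 for the size of the decreases. Changes of more than 2 on the log2 scale were found in 141 genes that rose and in 18 that fell, and of more than 3 in 44 and in 1. The 3 I/R samples all lay above the 3 sham samples in 14.4% of the genes tested and all below them in 16.1%. Over all genes tested the median log2 fold change was −0.03 and the median SE 0.197. By type, 883 of the genes that rose and 775 of those that fell were annotated as protein coding.

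The number of calls depended on single libraries. It fell to 249 higher and 155 lower without sham replicate 3, to 372 and 342 without sham replicate 1, to 390 and 264 without I/R replicate 2, and to 514 and 465 without sham replicate 2. Without I/R replicate 3 it was 1493 and 1056, and the lower calls numbered 579 without SBP replicate 3. None of the 1827 genes called changed sign in any of the 21 alternative fits that tested it. With library size alone as the scaling, the median log2 fold change of all genes moved from −0.03 to 0.08, and the calls split into 1230 higher and 500 lower.

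**Figure D2:**
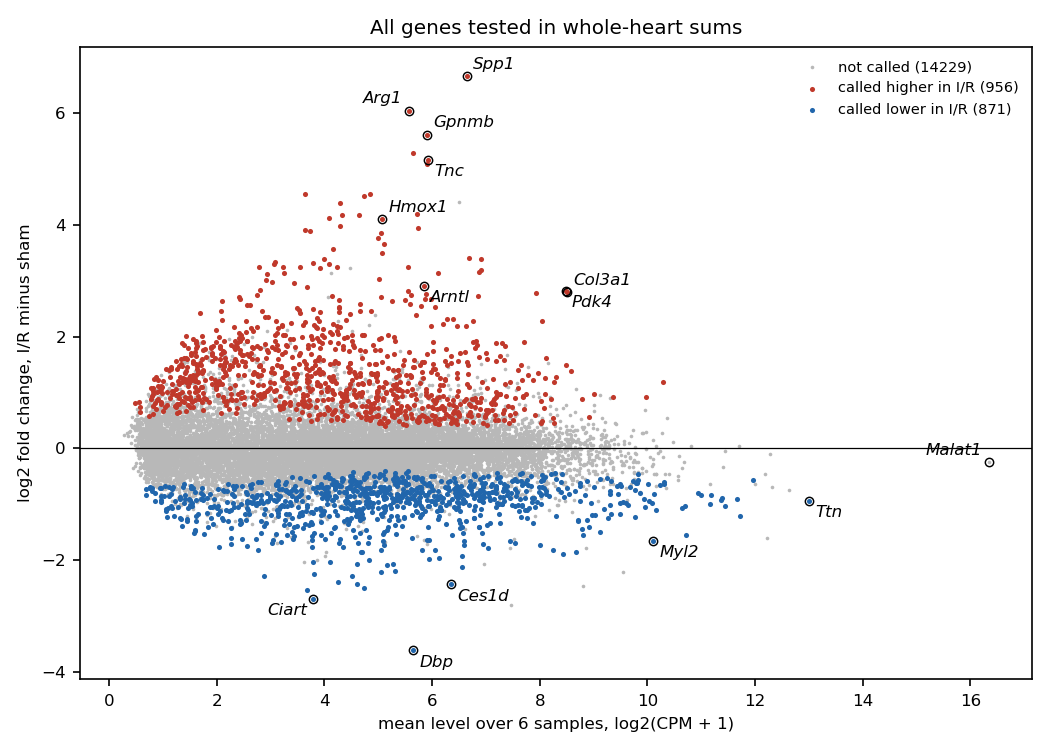
Log2 fold change (I/R minus sham) against the mean level over the 6 samples, log2(CPM + 1), for the 16056 genes tested. The 956 genes called higher (red) reach a log2 fold change of 6.66 (Spp1), whereas among the 871 called lower (blue) Dbp stands alone at −3.61, and Malat1 at the far right was not called.

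I/R samples differed more among themselves than sham samples. The median SD over genes was 0.187 in sham and 0.256 in I/R on the log2 scale, and the SD was larger in I/R for 64.5% of the genes tested. In a principal component analysis the first component (56.3% of the variance) placed the sham samples between −39.3 and −35.2 and I/R replicates 1, 2 and 3 at 34.2, 56.8 and 20.5. The second component (19.6%) separated I/R replicate 1, at 42.8, from I/R replicates 2 and 3, at −15.5 and −28.3. Among the genes that rose, the highest I/R sample was replicate 2 for 482 genes, replicate 1 for 413 and replicate 3 for 61. Of those that fell, the lowest I/R sample was replicate 2 for 511 genes, replicate 3 for 207 and replicate 1 for 153.

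Genes are described below by size of change and in lists of genes with a shared role, and members not counted as higher or lower did not pass the test. The share of all tested genes that rose (5.95%) or fell (5.42%) is the background for each list, and the plot of lists shows it. Where leaving out 1 library or another setting moved a list's count by more than 1.5 times, that count is given. The settings were the 6 samples alone, a pseudocount of 0.5 or 5, library size or median-of-ratios scaling, and no filter on low values or one at 10 CPM, which tests fewer members. The others were voom weights, equal weight for each nucleus, leaving out the nuclei richest in UMIs, and variances that are not robust. Some genes overlap another gene in the annotation. Among them, Per3 (Camta1) and Tnni3 (Dnaaf3) do so on the same strand, so their values are uncertain. Dbp (Sphk2), Nr1d1 (Thra), Timp1 (Syn1), Cd300lf (Rab37), Cd37 (Tead2) and Myh7 (Mhrt) do so on the other strand. The values of these last genes are uncertain if the authors' counting did not use the strand, which is not given in the sources used here.

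**Figure D3:**
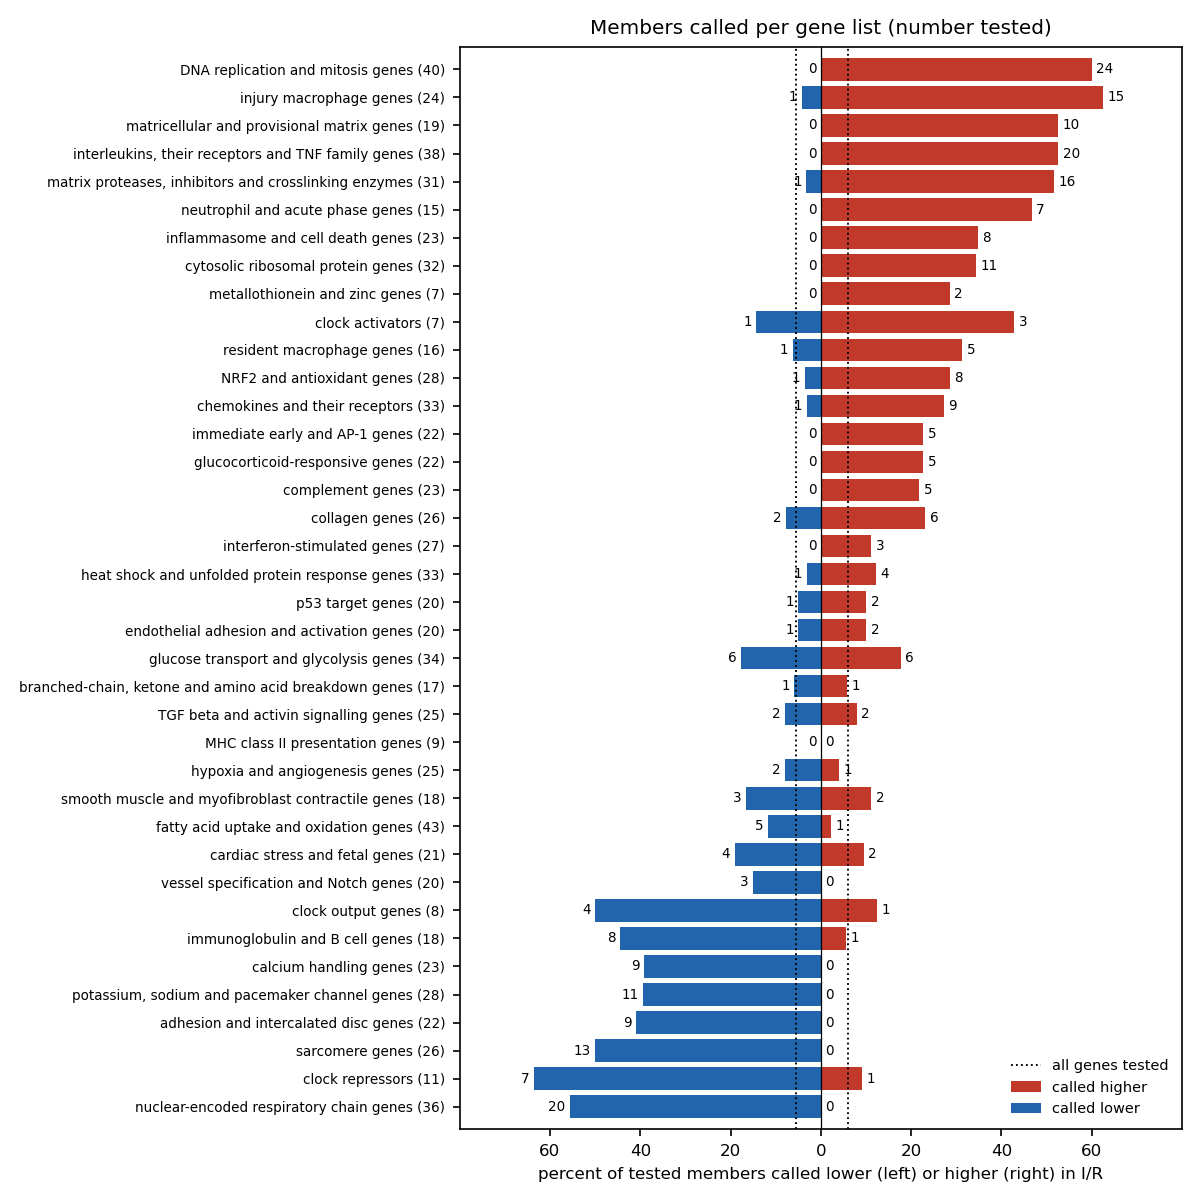
Share of the tested members of 38 gene lists that were called higher (red, to the right) or lower (blue, to the left) in I/R, in percent, with the number called beside each bar and the number tested in brackets. Dotted lines mark the share over all genes tested (5.95% and 5.42%). Matrix, macrophage, interleukin and mitosis lists extend to the right and sarcomere, channel, respiratory chain and clock repressor lists to the left.

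In the circadian clock, most of the genes called among the activators rose and most of those among the repressors and outputs fell. The activators CLOCK or NPAS2 pair with BMAL1, the product of Arntl, and the pair binds E-boxes (CACGTG) of the repressor and output genes. The repressors PER, CRY and REV-ERB then shut the loop down. Of the 7 activators tested 3 rose (Arntl, Npas2 and Clock) and 1 fell (Rora). Summed, the activator list was at 3506, 3574 and 3918 CPM in sham and 2499.6, 1889 and 2812 CPM in I/R, so that its total was lower in every I/R sample. Most of this total came from members other than Arntl, Clock and Npas2, whose sham means were 12.5, 102 and 64.9 CPM. Of the 11 repressors 7 fell (Ciart, Nr1d1, Per3, Nr1d2, Bhlhe41, Per2 and Bhlhe40) and 1 rose (Nfil3), with a median log2 fold change of −1.17 over the list. Of the 8 output genes 4 fell (Dbp, Hlf, Tef and Usp2) and 1 rose (Pdk4). The output sum was at 708, 867 and 801.5 CPM in sham and 555, 816 and 1335 CPM in I/R, which overlapped.

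Arntl (chr7:113207465-113314126, GRCm38) was at 11.4, 11.3 and 14.8 CPM in the sham samples and 125, 94.4 and 82.7 CPM in the I/R samples. Every I/R sample was several times the highest sham sample (log2 fold change 2.90 ± 0.21 (SE), adjusted p = 0.000219). Clock, at 102, 96.3 and 109 CPM in sham and 208, 201 and 195 CPM in I/R, varied little within either group (log2 fold change 0.97 ± 0.11 (SE), adjusted p = 0.00169). Npas2, its paralog, had 83.4, 54.6 and 56.6 CPM and 148, 118 and 151 CPM (log2 fold change 1.11 ± 0.30 (SE), adjusted p = 0.0417).

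Dbp (chr7:45705088-45710203), a transcription factor of the PAR bZIP family that carries the clock's rhythm to metabolic genes, showed the largest decrease of all genes called. It was at 69.5, 132 and 73.5 CPM in sham and 4.99, 5.16 and 9.46 CPM in I/R (log2 fold change −3.61 ± 0.32 (SE), adjusted p = 0.000545). Hlf, of the same family, was at 91.5, 102 and 113 CPM and 26.2, 21.9 and 39.8 CPM, again without overlap (log2 fold change −1.81 ± 0.23 (SE), adjusted p = 0.00377). The repressor gene Ciart fell from 23.4, 14.2 and 30.9 CPM to 1.49, 1.58 and 5.78 CPM (log2 fold change −2.69 ± 0.41 (SE), adjusted p = 0.00666). For Nr1d1, which encodes REV-ERB alpha, a repressor of Arntl, the levels were 47.7, 83.7 and 56.3 CPM in sham and 6.33, 12.2 and 25.2 CPM in I/R (log2 fold change −2.18 ± 0.42 (SE), adjusted p = 0.0143). The period genes were lower as well. Per3 was at 135, 174 and 141 CPM and 24.3, 30.5 and 51.2 CPM (log2 fold change −2.11 ± 0.25 (SE), adjusted p = 0.00225), and Per2 at 97.6, 56.9 and 73.7 CPM and 19, 41.5 and 42.8 CPM (log2 fold change −1.17 ± 0.30 (SE), adjusted p = 0.0348). I/R replicate 3 kept the highest level of Dbp, Hlf, Ciart, Nr1d1, Per3 and Per2 among the I/R samples, though still below every sham sample. The call of Npas2 was lost without sham replicate 1, 2 or 3, I/R replicate 1, 2 or 3 or SBP replicate 3 or without the low filter (adjusted p up to 0.133). The call of Per2 was lost without sham replicate 1 or 3, I/R replicate 2 or SBP replicate 1 or 3 or with the 6 samples alone (adjusted p up to 0.115). The call of Nr1d1 was lost without sham replicate 3 (adjusted p = 0.0544). The number of repressors called lower was 4 without sham replicate 1 or I/R replicate 2 and 3 without sham replicate 3, and of repressors called higher 0 without sham replicate 3. The number of activators called lower was 0 without sham replicate 3, and of output genes called higher 0 without sham replicate 1 or 3 or I/R replicate 2. The hour at which the tissue was collected is not given in the sources used here.

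The promoter of Ciart is shown because, among the clock genes that changed, its window held the most E-boxes. The RefSeq window, 250 bases before to 50 after the start (chr3:95882179-95882478, minus strand, GRCm38.p6), holds CACGTG 3 times, in capitals. The motif is its own reverse complement, so both strands give the same matches.
Ciart promoter: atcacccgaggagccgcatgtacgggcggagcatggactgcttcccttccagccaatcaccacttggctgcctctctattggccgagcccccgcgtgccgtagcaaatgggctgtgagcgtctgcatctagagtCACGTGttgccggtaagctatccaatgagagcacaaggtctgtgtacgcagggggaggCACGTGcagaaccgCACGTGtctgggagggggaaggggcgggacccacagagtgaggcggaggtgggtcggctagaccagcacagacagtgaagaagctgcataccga
E-boxes were also found in the windows of Bhlhe41 and Tef among the genes that fell, and of Per1, Cry1 and Tspan4 among those not called. None was found in the windows of Arntl, Clock, Npas2, Nr1d1, Nr1d2, Per3, Dbp, Hlf or Usp2, and Per2, Bhlhe40 and Wee1 had no window in the table. Over all 27025 genes with a window of this length, 8.09% held the motif in at least 1 window (7.15% of the 32851 windows). These are matches of letters in a short window and not measured binding sites.

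**Figure D4:**
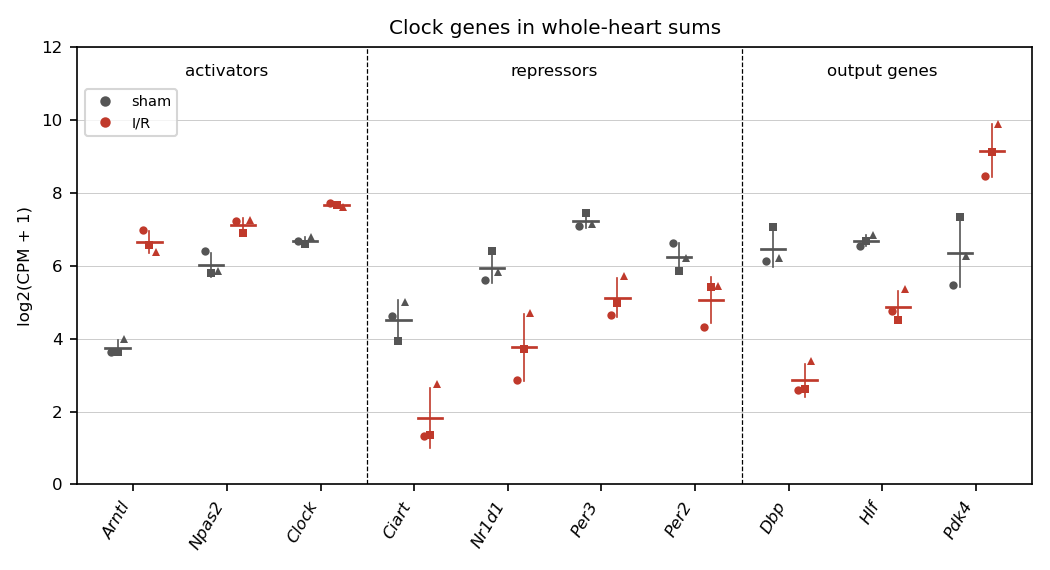
Levels of clock genes, log2(CPM + 1), in the 3 sham samples (grey) and the 3 I/R samples (red); circles, squares and triangles are replicates 1, 2 and 3, horizontal lines group means and vertical lines 1 SD. Arntl, Npas2, Clock and Pdk4 lie higher in I/R and the repressors shown, Dbp and Hlf lower.

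Pdk4, which encodes pyruvate dehydrogenase kinase 4, a brake on glucose oxidation that responds to fasting, glucocorticoids and the clock, was at 43.1, 160.3 and 75.3 CPM in sham and 352, 558 and 949.8 CPM in I/R (log2 fold change 2.81 ± 0.59 (SE), adjusted p = 0.0186). It belongs to the list of glucocorticoid-responsive genes, of which 5 of 22 rose (Mt2, Pdk4, Cdkn1a, Mertk and Sgk1) and none fell. Summed over the 22 genes, the list was at 5926, 1721 and 4437 CPM in sham and 2950.2, 5383 and 5767 CPM in I/R, so that the groups overlapped and sham replicate 2 stood below all other samples. The number of members called higher was 3 without sham replicate 1, 1 without sham replicate 3 or I/R replicate 2 and 8 without I/R replicate 1, and of those called lower 1 without I/R replicate 3. The call of Pdk4 was lost without sham replicate 1 or 3 or I/R replicate 2 (adjusted p up to 0.0702).

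Provisional matrix genes showed some of the largest increases. Matricellular proteins are secreted into the matrix to guide adhesion and repair rather than to bear load, and 10 of the 19 genes tested rose (Spp1, Tnc, Cthrc1, Fn1, Thbs1, Postn, Tnfaip6, Ccn4, Has1 and Sparc), with a median log2 fold change of 1.24. Tnc (chr4:63959785-64047015), which encodes tenascin C, was at 2.99, 3.95 and 0.752 CPM in sham and 144, 121 and 87.6 CPM in I/R. The groups were far apart (log2 fold change 5.15 ± 0.36 (SE), adjusted p = 0.000212). Spp1 (chr5:104435118-104441050), the gene of osteopontin, was close to undetected in sham, at 0.206, 0.216 and 0.0626 CPM, and reached 468, 39.1 and 84.4 CPM in I/R. I/R replicate 1 stood far above the other I/R samples. With all samples in the fit, the increase was the largest of all genes called (log2 fold change 6.66 ± 0.78 (SE), adjusted p = 0.00229, 0.0519 with voom weights). Cthrc1, a secreted collagen triple helix repeat protein of activated fibroblasts, was at 0.309, 1.29 and 0.188 CPM and 37.8, 22.2 and 11.8 CPM (log2 fold change 3.88 ± 0.39 (SE), adjusted p = 0.00089). Postn, which encodes periostin, a product of activated fibroblasts, was at 12.9, 23.1 and 8.02 CPM and 160.0, 77.5 and 46.6 CPM (log2 fold change 2.55 ± 0.46 (SE), adjusted p = 0.0125). In both of the last genes I/R replicate 3 was the lowest I/R sample and above every sham sample. The call of Postn was lost without sham replicate 3 (adjusted p = 0.054).

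Among 26 collagen genes tested, 6 rose and 2 fell. Those that rose were the fibrillar genes Col1a1, Col1a2, Col3a1, Col5a2 and Col5a3, and Col12a1, whereas Col4a3 and Col4a4 of basement membranes fell. Col1a1 was at 15.3, 19.8 and 21.5 CPM in sham and 318, 226 and 118 CPM in I/R (log2 fold change 3.38 ± 0.32 (SE), adjusted p = 0.000757), and Col1a2, the partner chain, at 82.3, 95.4 and 79.4 CPM and 628, 427 and 272 CPM (log2 fold change 2.28 ± 0.27 (SE), adjusted p = 0.00255). Col3a1 was at 73.7, 101 and 82.8 CPM and 912, 652 and 358 CPM (log2 fold change 2.80 ± 0.31 (SE), adjusted p = 0.00173). For Col12a1, which coats collagen fibrils, the levels were 0.721, 1.65 and 1.25 CPM and 21.5, 24.7 and 14.1 CPM (log2 fold change 3.24 ± 0.24 (SE), adjusted p = 0.000212). I/R replicate 1 had the highest level of Col1a1, Col1a2 and Col3a1 and replicate 3 the lowest of all 4 genes, and no sham sample overlapped. The number of collagen genes called higher was 13 without I/R replicate 3, and the number called lower 0 without sham replicate 1, 2 or 3 or with the 6 samples alone, 4 without I/R replicate 1 and 1 without I/R replicate 2 or SBP replicate 1 or 3 or under library size scaling. Of the 8 fibroblast markers only Col1a1, Col1a2 and Col3a1 were called, and these are collagen genes.

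Genes of matrix proteases, their inhibitors, crosslinking enzymes and related proteins rose in 16 of 31 cases and fell in 1 (Mmp13). Adam8, a membrane protease of activated leukocytes, was at 6.38, 2.95 and 4.07 CPM in sham and 107, 124 and 64.9 CPM in I/R (log2 fold change 4.18 ± 0.30 (SE), adjusted p = 0.000212). Timp1, an inhibitor of metalloproteinases, was at 1.44, 0.934 and 1.88 CPM and 42.2, 73.5 and 23.3 CPM (log2 fold change 4.16 ± 0.34 (SE), adjusted p = 0.00038). Adam12, a protease of activated mesenchymal cells, was at 23.5, 18.3 and 10.2 CPM and 178, 232 and 148 CPM (log2 fold change 3.40 ± 0.28 (SE), adjusted p = 0.000366). All 3 were separated from sham by a wide gap. The others called higher were Lox, Loxl2 and Loxl3, which crosslink collagen, and P4ha3, which hydroxylates it. Also called higher were the metalloproteinases Mmp3, Mmp8, Mmp9, Mmp14 and Mmp19, the ADAMTS proteases Adamts2, Adamts4 and Adamts12, and Plaur, the urokinase receptor. By contrast, 2 of 25 genes of TGF beta and activin signalling rose and 2 fell (8% each), near the shares over all genes tested. The list median of −0.06 turned to 0.06 under library size scaling, 0.03 without sham replicate 2 and 0.09 without I/R replicate 3. Summed, this list was at 2808, 2513 and 2542 CPM in sham and 2058, 2443 and 2335 CPM in I/R. Its total was thus lower in every I/R sample. The latency proteins went in both directions: Ltbp2 was at 3.71, 2.23 and 1.5 CPM and 37.5, 43.3 and 18.1 CPM (log2 fold change 3.25 ± 0.33 (SE), adjusted p = 0.00089), and Ltbp4 at 169.6, 213 and 155 CPM and 63.9, 55.7 and 65.2 CPM (log2 fold change −1.52 ± 0.18 (SE), adjusted p = 0.00202). Tgif1, a repressor of SMAD signalling, had a log2 fold change of 0.87 ± 0.20 (SE), adjusted p = 0.0244. The call of Tgif1 was lost without sham replicate 1, 2 or 3 or I/R replicate 1 or 2 or with equal weight per nucleus (adjusted p up to 0.0855). The number of TGF beta and activin genes called higher was 1 without sham replicate 1, 2 or 3 or I/R replicate 2 or with equal weight per nucleus, and the proteases called lower numbered 0 without sham replicate 3 or with the 10 CPM filter.

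**Figure D5:**
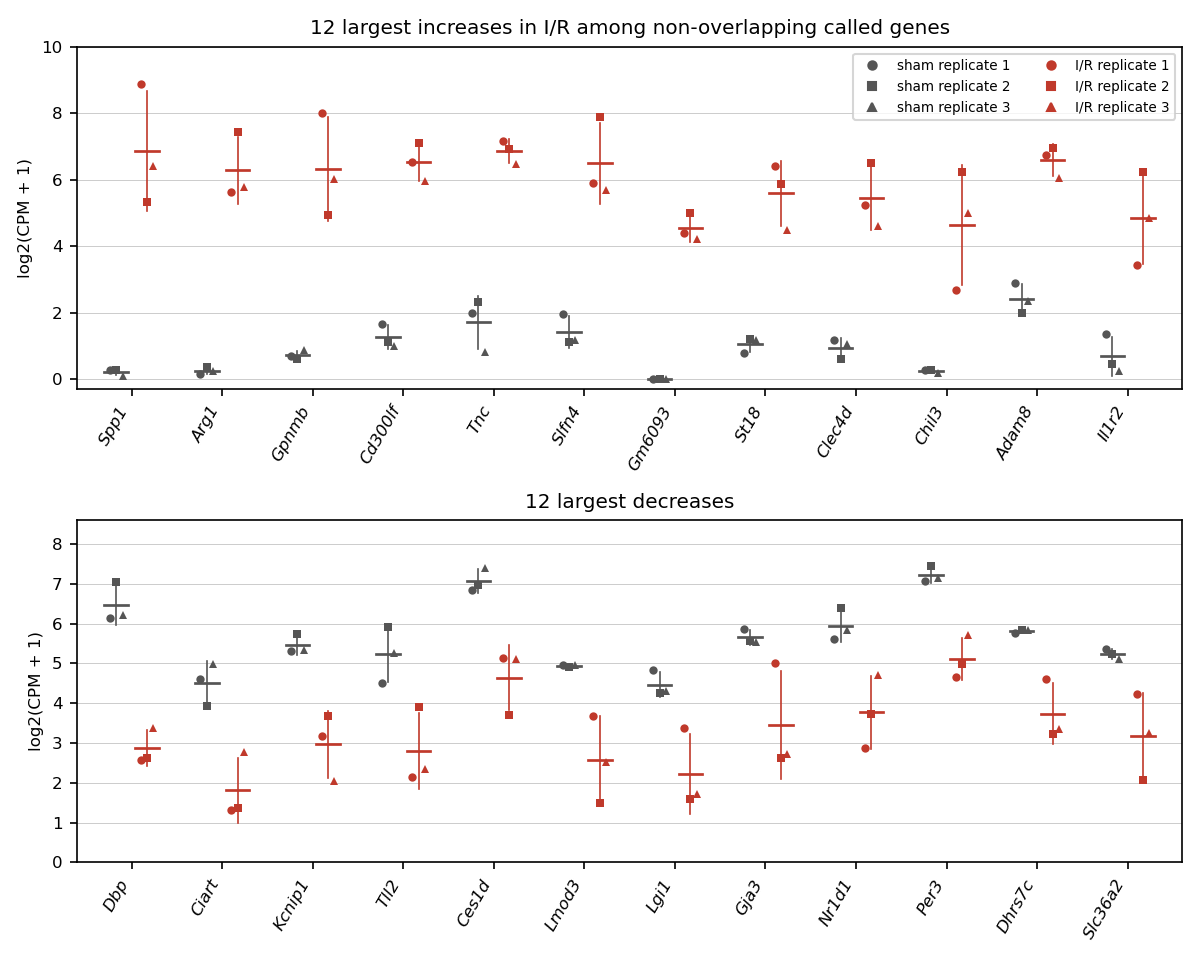
Levels, log2(CPM + 1), of the 12 largest increases (top) and the 12 largest decreases (bottom) among called genes whose groups did not overlap and whose higher group averaged at least 20 CPM. Points are samples (sham grey, I/R red), horizontal lines group means and vertical lines 1 SD. By this choice, all I/R samples of each gene lie on one side of all sham samples.

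Genes of macrophages in injured tissue rose in 15 of 24 cases, with a list median of 1.77. Arg1 (chr10:24915221-24927484), which encodes arginase 1, was at 0.103, 0.287 and 0.188 CPM in sham and 48.5, 174 and 54.1 CPM in I/R (log2 fold change 6.04 ± 0.40 (SE), adjusted p = 0.000212). Gpnmb, a transmembrane glycoprotein of lipid-laden and phagocytic macrophages, was at 0.618, 0.503 and 0.814 CPM and 259.5, 29.4 and 63.5 CPM (log2 fold change 5.61 ± 0.82 (SE), adjusted p = 0.00561, 0.0669 with voom weights). Chil3, which encodes a chitinase-like protein of macrophages and neutrophils, was at 0.206, 0.216 and 0.125 CPM and 5.35, 75 and 30.7 CPM (log2 fold change 4.39 ± 0.70 (SE), adjusted p = 0.00779, 0.0832 with voom weights). The I/R samples ranked differently between these genes. Spp1 and Gpnmb were highest in I/R replicate 1, and Arg1 and Chil3 in I/R replicate 2. The others called were the lysosomal genes Ctsb, Ctsd, Ctsl, Cd63 and Atp6v0d2, with Lgals3, Fn1, Thbs1, Trem2, Cd44 and Il1rn. The number called higher was 8 without sham replicate 1, 2 or 3. Vegfa was the member that fell, and the number called lower was 0 without sham replicate 1, 2 or 3 or I/R replicate 2, with equal weight per nucleus or under library size scaling.

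Resident macrophage genes, a list of scavenger and clearance receptors and other genes of tissue macrophages, rose in 5 of 16 cases. These were Pf4, Mertk, Stab1, F13a1 and Mrc1, and Timd4 fell. Pf4, a chemokine of platelets and resident macrophages, was at 5.05, 7.47 and 7.58 CPM in sham and 35.9, 57.1 and 33.4 CPM in I/R (log2 fold change 2.46 ± 0.23 (SE), adjusted p = 0.000757). Mertk, a receptor for the uptake of dying cells, was at 132, 93.7 and 148 CPM and 379.8, 298 and 257 CPM (log2 fold change 1.32 ± 0.22 (SE), adjusted p = 0.00954). Stab1, a scavenger receptor, was at 118, 121 and 121 CPM and 373, 212 and 208 CPM (log2 fold change 1.08 ± 0.23 (SE), adjusted p = 0.0213). Cd163, the hemoglobin scavenger receptor, was at 92, 48.6 and 92 CPM and 61.4, 151 and 142 CPM, which overlapped (log2 fold change 0.55 ± 0.37 (SE), adjusted p = 0.356). Of the 8 general macrophage markers 4 were called, all of them higher (Cd68, Adgre1, C1qb and Mrc1). That number was 0 without sham replicate 1, 1 without sham replicate 2 or 3 or I/R replicate 2 and 2 without SBP replicate 3. Adgre1, which encodes F4/80, was at 30.4, 72.3 and 72.6 CPM and 202, 286 and 99.1 CPM (log2 fold change 1.70 ± 0.45 (SE), adjusted p = 0.0395), and Cd68, a lysosomal protein, at 3.09, 3.81 and 5.26 CPM and 36.3, 16.2 and 16 CPM (log2 fold change 2.16 ± 0.42 (SE), adjusted p = 0.0145). Of monocyte markers, Plac8 was at 2.47, 1.87 and 1.88 CPM and 11.8, 24.1 and 7.71 CPM (log2 fold change 2.20 ± 0.36 (SE), adjusted p = 0.00809) and Fcgr1 had a log2 fold change of 2.03 ± 0.39 (SE), adjusted p = 0.0142. The call of Stab1 was lost without sham replicate 1, 2 or 3 (adjusted p up to 0.0719). The call of Adgre1 was lost without sham replicate 1, 2 or 3, I/R replicate 1 or 2 or SBP replicate 1 or 3, with the 6 samples alone or with equal weight per nucleus (adjusted p up to 0.131). The call of Cd68 was lost without sham replicate 1 (adjusted p = 0.0532). The call of Fcgr1 was lost without sham replicate 1 or 3 or I/R replicate 2 (adjusted p up to 0.0526). The number of resident macrophage genes called higher was 2 without sham replicate 1, 2 or 3 and 3 without SBP replicate 3, with the 6 samples alone or with equal weight per nucleus. Those called lower numbered 0 without sham replicate 1, 2 or 3, I/R replicate 1 or 3 or SBP replicate 1, 2 or 3, with the 6 samples alone, without the low filter, under library size scaling or with the 10 CPM filter.

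Neutrophil and acute phase genes rose in 7 of 15 cases (Il1r2, Hp, Csf3r, Wfdc17, Mmp8, Cxcr2 and Mmp9) and fell in none, with a median log2 fold change of 2.39. Il1r2, the decoy receptor of interleukin 1, was at 1.54, 0.359 and 0.188 CPM in sham and 9.88, 74.2 and 28 CPM in I/R (log2 fold change 4.17 ± 0.61 (SE), adjusted p = 0.00586). Csf3r, the receptor for the growth factor that mobilizes neutrophils, was at 11.9, 9.63 and 12.7 CPM and 108, 91.7 and 54.5 CPM (log2 fold change 2.74 ± 0.27 (SE), adjusted p = 0.000888). Hp, the gene of haptoglobin, was at 1.13, 0.431 and 0.689 CPM and 8.9, 79.8 and 9.69 CPM (log2 fold change 3.57 ± 0.66 (SE), adjusted p = 0.0128). For S100a8, a calcium-binding alarmin that makes up much of the neutrophil cytosol, all I/R samples were above sham, at 8.55, 2.3 and 6.08 CPM and 11, 129.9 and 19.3 CPM, and the call was missed (log2 fold change 2.39 ± 0.77 (SE), adjusted p = 0.0749). I/R replicate 2 was the highest sample for Il1r2, Hp and S100a8, far above the other I/R samples. Beside these genes stands the neutrophil marker sum of 394 CPM in that sample, against 115 and 147 CPM in the other I/R samples. This sum holds S100a8 itself, and also Csf3r, Cxcr2 and Mmp9. Without S100a8 it was 264 CPM in I/R replicate 2, against 136 and 95.7 CPM in I/R replicates 1 and 3. The part of the sum in the result was not tested. The call of Hp was lost without sham replicate 3 or with voom weights (adjusted p up to 0.0761). The number of neutrophil and acute phase genes called was 12 without I/R replicate 1 and 3 with the 10 CPM filter.

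Other myeloid genes were among the largest increases. Cd300lf, an inhibitory receptor of myeloid cells, was at 2.16, 1.15 and 1.0 CPM in sham and 92, 136 and 61.5 CPM in I/R (log2 fold change 5.28 ± 0.38 (SE), adjusted p = 0.000212). Slfn4, an interferon-responsive gene of myeloid cells, was at 2.88, 1.15 and 1.25 CPM and 58.8, 237 and 50.2 CPM (log2 fold change 5.08 ± 0.63 (SE), adjusted p = 0.00318). Clec4d, a C-type lectin receptor, was at 1.24, 0.503 and 1.06 CPM and 36.5, 89.9 and 23.4 CPM (log2 fold change 4.52 ± 0.42 (SE), adjusted p = 0.000757). In all 3 genes no sham sample exceeded 3 CPM and no I/R sample lay below 23 CPM. St18, a zinc finger transcription factor, was at 0.721, 1.29 and 1.25 CPM and 84.2, 57.4 and 21.6 CPM (log2 fold change 4.54 ± 0.57 (SE), adjusted p = 0.00337). The long noncoding RNA Gm6093 (chr13:33562486-33569317, minus strand) had no UMI in any of the 3 sham samples and 20.2, 31.1 and 17.6 CPM in the I/R samples. Its 1156 UMIs in I/R make it at least 295.6-fold higher than sham, taking 3 UMIs in the whole sham group as the floor (limma adjusted p = 0.000212). It overlaps Gm25043 and Gm47916 in the annotation.

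Chemokines and their receptors rose in 9 of 33 cases, among them Cxcl5, Cxcl3, Ccl6, Ccl9, Ccr1, Cxcr2, Ccl4 and Ccl3, and Ackr4, a scavenger of chemokines, fell. Cxcl5, a neutrophil attractant, was at 1.24, 1.87 and 1.88 CPM in sham and 22.2, 42.2 and 20.2 CPM in I/R (log2 fold change 3.39 ± 0.26 (SE), adjusted p = 0.000281). Ccl6, a chemokine of myeloid cells, was at 16.3, 7.97 and 14.8 CPM and 63.3, 84.9 and 95.3 CPM (log2 fold change 2.59 ± 0.25 (SE), adjusted p = 0.000782). Cxcl3 had no UMI in sham and 1.39, 30 and 3.06 CPM in the I/R samples, which is at least 132.2-fold higher by the same floor (limma adjusted p = 0.0442), with most of the 517 UMIs in replicate 2. Interleukins, their receptors and TNF family genes rose in 20 of 38 cases and fell in none. Il6 was at 0.515, 0 and 0.125 CPM and 6.64, 31.1 and 5.55 CPM (log2 fold change 3.29 ± 0.56 (SE), adjusted p = 0.01). Among the others that rose were the ligands Il1b, Il18, Il33, Osm, Tnfsf11 and Tnfsf14, and the receptor genes Il1r1, Il1rap, Il4ra, Il6ra, Il17ra, Il18rap, Csf2rb, Tnfrsf1a and Tnfrsf1b, with Socs3, a feedback inhibitor of cytokine signalling, and Il1rn, the interleukin 1 receptor antagonist. The call of Cxcl3 was lost without sham replicate 1, 2 or 3 or SBP replicate 1, 2 or 3, with the 6 samples alone, with a pseudocount of 5 or without the low filter (adjusted p up to 0.132). The interleukin list counted 12 without sham replicate 1 and 11 without sham replicate 3 for higher and 2 without I/R replicate 1 for lower. The chemokine list counted 5 without sham replicate 1 or 3 and 4 with the 10 CPM filter for higher. For lower it counted 0 without sham replicate 3 or with the 10 CPM filter and 2 without I/R replicate 3.

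Complement genes, which opsonize debris and attract leukocytes, rose in 5 of 23 cases (Itgam, C3ar1, C5ar1, C1qb and Cfp). Itgam, the integrin alpha M chain of complement receptor 3, was at 4.74, 5.6 and 4.26 CPM in sham and 37.2, 113 and 23.5 CPM in I/R (log2 fold change 3.02 ± 0.50 (SE), adjusted p = 0.00863). The anaphylatoxin receptors were C5ar1, at 6.08, 6.32 and 8.2 CPM and 27, 21.3 and 19.2 CPM (log2 fold change 1.58 ± 0.21 (SE), adjusted p = 0.00374), and C3ar1, at 6.28, 8.33 and 10.1 CPM and 62.2, 25.5 and 20.4 CPM (log2 fold change 1.86 ± 0.46 (SE), adjusted p = 0.0334). C1qb, a chain of the first component, was at 39.7, 40.1 and 47.5 CPM and 136, 90.6 and 67 CPM (log2 fold change 1.13 ± 0.25 (SE), adjusted p = 0.0237). The macrophage marker sum, given above, was also higher in every I/R sample, and its part in these results was not tested. That sum itself holds the complement genes C1qa, C1qb and C1qc. Genes of the inflammasome and of cell death rose in 8 of 23 cases (Bcl2a1b, Nlrp3, Ripk3, Pycard, Ninj1, Mcl1, Gsdme and Ripk1). Nlrp3, the sensor, was at 4.53, 3.59 and 4.89 CPM and 10.6, 31.9 and 7.99 CPM (log2 fold change 1.51 ± 0.41 (SE), adjusted p = 0.0427). Pycard, its adaptor, was at 5.05, 6.18 and 4.51 CPM and 13.8, 14.2 and 8.84 CPM (log2 fold change 1.07 ± 0.25 (SE), adjusted p = 0.0254), and Ninj1, which ruptures the plasma membrane of dying cells, had a log2 fold change of 0.93 ± 0.23 (SE), adjusted p = 0.0341. The call of C3ar1 was lost without sham replicate 1, 2 or 3 or I/R replicate 1 or 2, with voom weights or with equal weight per nucleus (adjusted p up to 0.106). The call of C1qb was lost without sham replicate 1, 2 or 3 or I/R replicate 2 (adjusted p up to 0.0777). The call of Nlrp3 was lost without sham replicate 1, 2 or 3, I/R replicate 2 or SBP replicate 1, 2 or 3, with the 6 samples alone, with a pseudocount of 5, without the low filter, with voom weights or with equal weight per nucleus (adjusted p up to 0.11). The call of Pycard was lost without sham replicate 1 or 3 or I/R replicate 1 or 2 (adjusted p up to 0.092). The call of Ninj1 was lost without sham replicate 1, 2 or 3, I/R replicate 2 or SBP replicate 3 or with the 6 samples alone (adjusted p up to 0.115). The inflammasome and cell death list counted 1 without sham replicate 1 or I/R replicate 2, 3 without sham replicate 2, 2 without sham replicate 3 or with the 6 samples alone, 14 without I/R replicate 3, 4 without SBP replicate 3 and 5 with the 10 CPM filter. The complement list counted 2 without sham replicate 1, 2 or 3 or I/R replicate 2, 8 without I/R replicate 1 or 3 and 3 with voom weights.

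B cell genes fell more often than they rose, and antigen presentation genes did not pass the test. Of 18 immunoglobulin and B cell genes, 8 fell (Ighd, Bank1, Pax5, Igkc, Iglc2, Iglc3, Cd79a and Blk), and Cd37, a tetraspanin of B cells and myeloid cells, rose. Bank1, an adaptor of B cell receptor signalling, was at 62.8, 102 and 85.2 CPM in sham and 49.6, 13.7 and 16.7 CPM in I/R (log2 fold change −1.81 ± 0.42 (SE), adjusted p = 0.0264). Cd37 was at 9.89, 15.2 and 13.8 CPM and 45.2, 39.8 and 21.9 CPM (log2 fold change 1.35 ± 0.37 (SE), adjusted p = 0.0434). No MHC class II gene was called by limma (0 of 9, and none with voom weights), with 6 at an unadjusted p under 0.05, all of them lower, and a median log2 fold change of −1.33. Summed over 11 genes, the class II list was at 158, 229 and 224 CPM in sham and 216, 52.8 and 45.5 CPM in I/R, so that I/R replicate 1 lay within the sham range and the other I/R samples far below it. Without I/R replicate 1, 7 of the 9 genes were called lower. The T cell marker sum was at 51.3, 76.6 and 70 CPM in sham and 102, 31.4 and 31 CPM in I/R, with I/R replicate 1 above and the other I/R samples below every sham sample. Zbtb46, a transcription factor of conventional dendritic cells that endothelial cells express as well, was at 114, 102 and 121 CPM and 57.4, 68.4 and 77 CPM (log2 fold change −0.73 ± 0.16 (SE), adjusted p = 0.0213). Of 27 interferon-stimulated genes 3 rose (Oas3, Ifi204 and Ifi207) and none fell, among them Ifi204 with a log2 fold change of 1.24 ± 0.26 (SE), adjusted p = 0.019 and Ifi207 with 1.18 ± 0.32 (SE), adjusted p = 0.0453. The call of Bank1 was lost without sham replicate 1, 2 or 3 or I/R replicate 2 or 3 (adjusted p up to 0.088). The call of Cd37 was lost without sham replicate 1, 2 or 3, I/R replicate 1 or 2 or SBP replicate 1 or 3, without the low filter, with voom weights or with equal weight per nucleus (adjusted p up to 0.136). The call of Zbtb46 was lost without sham replicate 1 or 3 or I/R replicate 2 (adjusted p up to 0.0814). The call of Ifi204 was lost without I/R replicate 2 (adjusted p = 0.0682). The call of Ifi207 was lost without sham replicate 1, 2 or 3, I/R replicate 2 or 3 or SBP replicate 1, 2 or 3, with the 6 samples alone, without the low filter, with voom weights or with equal weight per nucleus (adjusted p up to 0.121). The number of B cell genes called lower was 2 without sham replicate 2 or I/R replicate 2, 1 without sham replicate 3 or with the 10 CPM filter, 15 without I/R replicate 1 and 5 without I/R replicate 3. Those called higher numbered 0 without sham replicate 1, 2 or 3, I/R replicate 1 or 2 or SBP replicate 1 or 3, with equal weight per nucleus, without the low filter or with voom weights. Interferon-stimulated genes called higher numbered 1 without sham replicate 1, 2 or 3, with equal weight per nucleus or with voom weights, 0 without I/R replicate 2 and 7 without I/R replicate 3, and their list median turned from 0.30 to −0.01 without I/R replicate 2.

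DNA replication and mitosis genes rose in 24 of 40 cases and fell in none, with a median log2 fold change of 1.25. Mki67, the gene of the Ki-67 antigen of dividing cells, was at 2.88, 5.82 and 2.82 CPM in sham and 34.7, 27.4 and 10.2 CPM in I/R (log2 fold change 2.27 ± 0.43 (SE), adjusted p = 0.0132). Top2a, which untangles replicated DNA, was at 4.02, 8.4 and 2.07 CPM and 50.8, 28.1 and 16.8 CPM (log2 fold change 2.51 ± 0.47 (SE), adjusted p = 0.0125). Diaph3, a formin of the dividing cell cortex, was at 6.8, 13.6 and 6.95 CPM and 99.1, 64 and 32.8 CPM (log2 fold change 2.64 ± 0.43 (SE), adjusted p = 0.00818), and Cenpe, a kinetochore motor, at 1.54, 4.31 and 1.75 CPM and 30.8, 17.1 and 8.84 CPM (log2 fold change 2.42 ± 0.45 (SE), adjusted p = 0.0128). I/R replicate 1 was the highest and replicate 3 the lowest I/R sample in all 4 genes, and no sham sample reached the I/R range. Summed over the 40 genes the list was at 311, 389.9 and 318 CPM and 1024, 633 and 497 CPM. The calls of Mki67, Top2a and Cenpe were lost without sham replicate 3 (adjusted p up to 0.058). The number of members called was 9 without sham replicate 1, 2 without sham replicate 3, 12 without I/R replicate 2, 11 with equal weight per nucleus and 14 with the 10 CPM filter. The sums do not show which cells carried these transcripts.

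Genes of cytosolic ribosomal proteins rose in 11 of 32 cases and fell in none (list median 0.42). Rpl3 was at 35.6, 40.4 and 37.9 CPM in sham and 83.9, 93.7 and 59.4 CPM in I/R (log2 fold change 1.01 ± 0.18 (SE), adjusted p = 0.0116). Rps9 was at 72.5, 81.2 and 72.2 CPM and 140.3, 137 and 113 CPM (log2 fold change 0.77 ± 0.14 (SE), adjusted p = 0.0113), and Rpsa, the laminin receptor gene of the small subunit, at 90.3, 117 and 85.1 CPM and 168, 222 and 131 CPM (log2 fold change 0.81 ± 0.20 (SE), adjusted p = 0.032). Many ribosomal protein genes have processed pseudogenes that share reads with them, so the values of single members are uncertain. The call of Rps9 was lost without sham replicate 3 (adjusted p = 0.0506). The call of Rpsa was lost without sham replicate 1 or 3 or I/R replicate 1 or 2 or with the 6 samples alone (adjusted p up to 0.113). The number of ribosomal protein genes called was 3 without sham replicate 1 or I/R replicate 2 or with the 6 samples alone, 7 without sham replicate 2 or SBP replicate 1, 2 without sham replicate 3, 20 without I/R replicate 3 and 19 under library size scaling.

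Many genes of the contractile apparatus were lower in I/R. Of 26 sarcomere genes 13 fell and none rose, with a median log2 fold change of −0.71. Summed, the list was at 33285, 30025 and 34775 CPM in sham and 17430.0, 12830.0 and 19328 CPM in I/R. Ttn, the gene of titin, the elastic spring of the sarcomere, was at 12523, 9569 and 10313 CPM and 6327, 4701 and 5856 CPM (log2 fold change −0.94 ± 0.17 (SE), adjusted p = 0.0125). Myl2, the ventricular regulatory light chain, was at 1396, 1923 and 1684 CPM and 641, 389 and 590.2 CPM (log2 fold change −1.65 ± 0.22 (SE), adjusted p = 0.00398). Tnni3, cardiac troponin I, was at 798, 947 and 816 CPM and 368, 268 and 475 CPM (log2 fold change −1.24 ± 0.19 (SE), adjusted p = 0.00657), and Mybpc3, a thick filament protein, at 886, 680.1 and 854 CPM and 445, 208 and 246 CPM (log2 fold change −1.50 ± 0.27 (SE), adjusted p = 0.012). Lmod3, which nucleates thin filaments, was at 30.2, 29.1 and 30.2 CPM and 11.9, 1.79 and 4.76 CPM (log2 fold change −2.38 ± 0.44 (SE), adjusted p = 0.0125). Actc1, cardiac alpha actin, was at 262, 516 and 367 CPM and 216, 53.4 and 114 CPM (log2 fold change −1.73 ± 0.43 (SE), adjusted p = 0.0322). I/R replicate 2 was the lowest sample in all 6 genes.

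Not every myosin gene was called. Myh6, the alpha heavy chain of the adult mouse heart, was at 6719.6, 6081 and 7718 CPM and 3426, 855 and 3875 CPM, without overlap but short of the threshold (log2 fold change −1.60 ± 0.50 (SE), adjusted p = 0.067). Myh7, the beta heavy chain of the fetal heart, was at 249, 56.5 and 147 CPM and 37.2, 491 and 72 CPM, which overlapped (log2 fold change −0.21 ± 0.82 (SE), adjusted p = 0.895). The cardiomyocyte marker list shares Ttn, Tnnt2, Tnni3, Myh6, Actn2 and Mybpc3 with the sarcomere list. Its sum was at 0.52 of sham, and the sarcomere list at 0.506 of sham. The calls of Mybpc3 and Lmod3 were lost without sham replicate 3 (adjusted p up to 0.054). The call of Actc1 was lost without sham replicate 1, 2 or 3, I/R replicate 2 or 3 or SBP replicate 3 or with the 6 samples alone (adjusted p up to 0.0972). The number of sarcomere genes called was 8 without sham replicate 2, 4 without sham replicate 3 and 6 without I/R replicate 2.

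Ion channel and calcium handling genes were called in I/R in the lower direction alone. Of 28 potassium, sodium and pacemaker channel genes 11 fell and none rose. Kcnh2, which carries the rapid delayed rectifier current, was at 40.2, 24.8 and 38.6 CPM in sham and 12.5, 12 and 7.99 CPM in I/R (log2 fold change −1.58 ± 0.23 (SE), adjusted p = 0.00562). Kcnj5, a subunit of the muscarinic potassium channel, was at 21.5, 18.7 and 36 CPM and 8.75, 12 and 5.72 CPM (log2 fold change −1.42 ± 0.30 (SE), adjusted p = 0.019). Kcnip1, a potassium channel interacting protein outside the list, had one of the largest decreases, from 38.7, 52.3 and 39.3 CPM to 8.08, 11.8 and 3.12 CPM (log2 fold change −2.49 ± 0.36 (SE), adjusted p = 0.00558). Of 23 calcium handling genes 9 fell (Cacna1g, Hrc, Camk2a, Cacnb2, Casq2, Cacna2d1, Trdn, Jph1 and Itpr1) and none rose. Hrc, a calcium buffer of the sarcoplasmic reticulum, was at 67, 113 and 88.3 CPM and 34.8, 18.5 and 31.9 CPM (log2 fold change −1.64 ± 0.25 (SE), adjusted p = 0.00629), Camk2a at 65.4, 58 and 49.8 CPM and 25.2, 21.1 and 22.7 CPM (log2 fold change −1.28 ± 0.14 (SE), adjusted p = 0.00174), and Cacna1g, a T-type channel, at 20.6, 23.7 and 15 CPM and 9.42, 4.68 and 2.72 CPM (log2 fold change −1.76 ± 0.41 (SE), adjusted p = 0.0258). The call of Kcnj5 was lost without sham replicate 3 (adjusted p = 0.0708). The call of Cacna1g was lost without sham replicate 1, 2 or 3 or I/R replicate 2 or with equal weight per nucleus (adjusted p up to 0.0801). The number of channel genes called lower was 7 without sham replicate 1 or I/R replicate 2, under library size scaling or with the 10 CPM filter and 3 without sham replicate 3. For calcium handling genes it was 3 without sham replicate 1 or I/R replicate 2, 2 without sham replicate 3 and 5 with the 6 samples alone.

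At the intercalated disc, which joins cardiomyocytes, and at other adhesion sites, 9 of 22 genes fell (Itgb1bp2, Fhl2, Dsc2, Ank2, Ctnna3, Dsg2, Ank3, Dsp and Gjc1). Fhl2, a LIM protein of the sarcomere and nucleus, was at 5265, 3952 and 4558 CPM in sham and 3236, 1367 and 1730.2 CPM in I/R (log2 fold change −1.21 ± 0.28 (SE), adjusted p = 0.0262). Itgb1bp2, or melusin, was at 167, 118 and 134 CPM and 74.2, 50.6 and 45.3 CPM (log2 fold change −1.30 ± 0.20 (SE), adjusted p = 0.00642). Dsc2, a desmosomal cadherin, was at 37.2, 46 and 54.3 CPM and 20.8, 18.2 and 26 CPM (log2 fold change −1.04 ± 0.19 (SE), adjusted p = 0.0125). Gja3, a connexin gene, was at 57.9, 46 and 45.8 CPM and 31.4, 5.16 and 5.55 CPM (log2 fold change −2.21 ± 0.53 (SE), adjusted p = 0.0292). I/R replicate 1 had the highest I/R level of Fhl2, Itgb1bp2 and Gja3, and it stayed below every sham sample. The call of Fhl2 was lost without sham replicate 1 or 3 or I/R replicate 2 or 3 or with the 6 samples alone (adjusted p up to 0.0891). The call of Dsc2 was lost without sham replicate 3 (adjusted p = 0.0544). The call of Gja3 was lost without sham replicate 1, 2 or 3 or I/R replicate 2 or 3 or with the 6 samples alone (adjusted p up to 0.0979). The number of disc and adhesion genes called was 4 without sham replicate 1 or I/R replicate 2 or with the 6 samples alone, 5 without sham replicate 2 and 1 without sham replicate 3.

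Cardiac stress and fetal genes did not move together: 2 of 21 rose (Atf3 and Uck2) and 4 fell (Actc1, Tuba4a, Cryab and Hspb7), and the list median of −0.09 turned to 0.04 under library size scaling, 0.03 without sham replicate 3 and 0.20 without I/R replicate 1. Ankrd1, a stretch-responsive gene of the sarcomere and nucleus, was above sham in all I/R samples, at 122, 90.4 and 184 CPM and 188, 774 and 338 CPM, and missed the call (log2 fold change 1.52 ± 0.53 (SE), adjusted p = 0.0918). The natriuretic peptide genes, whose products lower blood pressure and volume, overlapped between the groups. Nppa was at 24.6, 10.9 and 48.5 CPM and 16.1, 16.7 and 19.2 CPM (log2 fold change −0.44 ± 0.41 (SE), adjusted p = 0.52), and Nppb at 16.6, 8.4 and 34.3 CPM and 20.6, 46.6 and 38 CPM (log2 fold change 0.93 ± 0.44 (SE), adjusted p = 0.195). Atf3, a stress-induced transcription factor, was at 1.65, 2.73 and 3.51 CPM and 8.54, 12.2 and 11.6 CPM (log2 fold change 1.72 ± 0.29 (SE), adjusted p = 0.00875). Tuba4a, a tubulin gene, had a log2 fold change of −1.59 ± 0.29 (SE), adjusted p = 0.0124. The call of Tuba4a was lost without sham replicate 3 (adjusted p = 0.0511). The number of stress and fetal genes called lower was 1 without sham replicate 1 or 2, I/R replicate 2 or SBP replicate 3 or with the 6 samples alone, 0 without sham replicate 3 and 2 without I/R replicate 1, without the low filter or under library size scaling. Ankrd1 was called in 1 of the 21 alternative fits, and Nppa and Nppb in none. The sign for Nppa turned positive without sham replicate 3 (0.07), and that for Myh7 without sham replicate 1 (0.27), I/R replicate 1 (0.56) or I/R replicate 3 (0.14).

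Nuclear-encoded genes of the respiratory chain, the complexes that make ATP in mitochondria, fell in 20 of 36 cases and rose in none, with a median log2 fold change of −0.79. The members that fell were subunits of ATP synthase and of every complex of the chain. Summed, the list was at 4552, 5584 and 5377 CPM in sham and 2750.1, 2424 and 4171 CPM in I/R, with replicate 3 the least reduced. Cox7a1, a heart and muscle isoform of cytochrome c oxidase, was at 75.2, 141 and 108 CPM and 40.8, 26.3 and 61.2 CPM (log2 fold change −1.35 ± 0.30 (SE), adjusted p = 0.0232). Cox8b, another such isoform, was at 121, 181 and 154 CPM and 60.3, 42.9 and 96.2 CPM (log2 fold change −1.24 ± 0.26 (SE), adjusted p = 0.0197), and Ndufa1, of complex I, at 35.2, 54.1 and 48.4 CPM and 21.3, 12.5 and 29.9 CPM (log2 fold change −1.14 ± 0.27 (SE), adjusted p = 0.0292). The calls of Cox7a1 and Ndufa1 were lost without sham replicate 2 or 3 or I/R replicate 2 or with the 6 samples alone (adjusted p up to 0.0982). The call of Cox8b was lost without sham replicate 2 or 3 or I/R replicate 2 (adjusted p up to 0.0727). The number of members called was 8 without sham replicate 1, 0 without sham replicate 2 or 3 or I/R replicate 2, 9 without I/R replicate 1, 34 without I/R replicate 3, 13 without SBP replicate 1, 11 without SBP replicate 3, 3 with the 6 samples alone and 12 under library size scaling. The list was at 0.602 of sham and the cardiomyocyte marker sum at 0.52 of sham, and the part of the latter in this result was not tested. Mitochondrially encoded genes are absent from the tables.

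Fuel genes were mixed. Of 43 genes of fatty acid uptake and oxidation, 5 fell (Ces1d, Ppargc1b, Hadh, Esrrg and Etfb) and Plin2 rose. Ces1d, a carboxylesterase that hydrolyses stored lipid, was at 114, 124 and 169 CPM in sham and 33.9, 12 and 33.7 CPM in I/R (log2 fold change −2.43 ± 0.38 (SE), adjusted p = 0.00705). Ppargc1b, a coactivator of mitochondrial genes, was at 237, 214 and 297 CPM and 139.6, 120.0 and 106 CPM (log2 fold change −1.02 ± 0.17 (SE), adjusted p = 0.00818). Plin2, which coats lipid droplets, was at 28.4, 65.2 and 48.9 CPM and 130.2, 182 and 217 CPM (log2 fold change 1.92 ± 0.33 (SE), adjusted p = 0.0109). Of 34 genes of glucose transport and glycolysis 6 rose (Pdk4, Hk3, Slc16a3, Pgam1, Slc2a1 and Pdk3) and 6 fell (Eno3, Pgam2, Slc2a4, Pfkm, Tpi1 and Aldoa). Eno3, the muscle enolase, was at 81.9, 124 and 119.7 CPM and 45, 22.4 and 19 CPM (log2 fold change −1.95 ± 0.30 (SE), adjusted p = 0.00705), and Hk3, a hexokinase of leukocytes, at 3.5, 5.24 and 5.26 CPM and 33, 26.1 and 15.4 CPM (log2 fold change 2.14 ± 0.39 (SE), adjusted p = 0.0125). Among those that fell, Eno3, Pgam2, Pfkm and Slc2a4 are muscle isoforms. Hk3, Pgam1 and Slc16a3 among those that rose are used by leukocytes and many other cells. This leaves out Pdk4, Slc2a1 and Pdk3, which rose, and Tpi1 and Aldoa, which fell. The part of cell types in these changes was not tested. Summed, the glucose list was at 2044, 2334 and 2496 CPM and 1852, 2286 and 2744 CPM, with overlapping groups. In the breakdown of branched-chain and other amino acids, Bcat1, a cytosolic transaminase, had a log2 fold change of 1.17 ± 0.25 (SE), adjusted p = 0.019, and Mccc1, of leucine breakdown, −0.75 ± 0.18 (SE), adjusted p = 0.0282. The call of Bcat1 was lost without sham replicate 2 or 3 or I/R replicate 2 or with equal weight per nucleus (adjusted p up to 0.171). The call of Mccc1 was lost without sham replicate 1, 2 or 3 or I/R replicate 2, with the 6 samples alone or with equal weight per nucleus (adjusted p up to 0.104). These were the only calls among 17 genes of that list (5.88% in each direction, near the shares over all genes tested). For higher the list counted 0 without sham replicate 2 or 3 or I/R replicate 2 or with equal weight per nucleus. For lower it counted 0 without sham replicate 1, 2 or 3 or I/R replicate 2, with the 6 samples alone or with equal weight per nucleus, 2 without I/R replicate 1 and 3 without I/R replicate 3. The counts for the glucose list were 2 without sham replicate 1 or 3 and 3 without I/R replicate 2 for higher and 3 without sham replicate 2 or 3 or I/R replicate 2 and 12 without I/R replicate 3 for lower. Those for the fatty acid list were 2 without sham replicate 2, under library size scaling, with a pseudocount of 0.5 or without robust variances and 3 without I/R replicate 1 for higher. For lower they were 3 without sham replicate 1 or under library size scaling and 2 without sham replicate 3 or I/R replicate 2 or with the 6 samples alone.

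Some of the largest decreases were of genes on no list. Dhrs7c, a dehydrogenase of the muscle sarcoplasmic reticulum, was at 53.5, 56.8 and 56.3 CPM in sham and 23.5, 8.39 and 9.18 CPM in I/R (log2 fold change −2.09 ± 0.40 (SE), adjusted p = 0.0137). Tll2, a protease of the tolloid family, was at 21.9, 59.8 and 37.1 CPM and 3.45, 14 and 4.08 CPM (log2 fold change −2.43 ± 0.48 (SE), adjusted p = 0.0155). Slc36a2, a transporter of small amino acids, was at 40, 37.1 and 33.7 CPM and 17.8, 3.16 and 8.44 CPM (log2 fold change −2.07 ± 0.44 (SE), adjusted p = 0.0192), and Lgi1, a secreted leucine-rich protein known from neurons, at 27.6, 18.2 and 18.8 CPM and 9.37, 1.99 and 2.27 CPM (log2 fold change −2.25 ± 0.41 (SE), adjusted p = 0.0125). In Dhrs7c and Slc36a2 the sham samples lay close together and the I/R samples spread more widely below them. That the groups do not overlap in these genes follows from how the genes were chosen. The calls of Dhrs7c and Tll2 were lost without sham replicate 3 (adjusted p up to 0.0603). The call of Slc36a2 was lost without sham replicate 1, 2 or 3 (adjusted p up to 0.0639).

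Genes of the oxidative stress response rose in part. NRF2 is a transcription factor that drives antioxidant and iron-storage genes, and 8 of 28 genes on its list rose (Hmox1, Ftl1, Gpx1, Gsr, Fth1, Gclm, Txnrd1 and Txn1) and 1 (Gsta4) fell. Hmox1 (chr8:75093621-75100589), heme oxygenase 1, which degrades heme, was at 1.65, 2.66 and 2.57 CPM in sham and 113, 42.4 and 34.5 CPM in I/R (log2 fold change 4.10 ± 0.36 (SE), adjusted p = 0.000545). Ftl1, the ferritin light chain, was at 42.4, 48.5 and 56.5 CPM and 196, 133 and 117 CPM (log2 fold change 1.55 ± 0.21 (SE), adjusted p = 0.004). Ferritin genes have processed pseudogenes, which makes the level of Ftl1 uncertain. Gsta4, a glutathione transferase, had a log2 fold change of −1.35 ± 0.27 (SE), adjusted p = 0.0148. The call of Gsta4 was lost without sham replicate 3 (adjusted p = 0.0626). The number of NRF2 list genes called higher was 2 without sham replicate 1 or 3, 3 without sham replicate 2 or I/R replicate 2 and 4 with the 6 samples alone, and of those called lower 0 without sham replicate 3 or with the 10 CPM filter.

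Of 7 metallothionein and zinc genes tested, 2 rose (Mt2 and Slc39a8). Mt2, a small zinc-binding protein induced by metals and glucocorticoids, was at 22.3, 3.16 and 14.1 CPM in sham and 39, 216 and 114 CPM in I/R. The groups did not overlap, though I/R replicate 1 came near sham replicate 1 (log2 fold change 3.14 ± 0.76 (SE), adjusted p = 0.0307). The promoter of Mt2 is shown because it held the most matches to the metal response element among the list's genes that changed. Searched were TGCACNC and TGCGCNC on both strands, and the 4 matches in the RefSeq window (chr8:94172368-94172667, plus strand, GRCm38.p6) are in capitals. The third and the fourth lie on the minus strand.
Mt2 promoter: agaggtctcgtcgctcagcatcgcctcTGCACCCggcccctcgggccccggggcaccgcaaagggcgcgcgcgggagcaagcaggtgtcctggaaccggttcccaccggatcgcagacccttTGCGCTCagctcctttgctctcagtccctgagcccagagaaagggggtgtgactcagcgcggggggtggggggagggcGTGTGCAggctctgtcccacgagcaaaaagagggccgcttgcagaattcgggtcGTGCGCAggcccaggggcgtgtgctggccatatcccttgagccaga
Matches were present in 6 of the 8 list genes with a window (Mt1, Mt2, Mt3, Slc30a1, Slc30a10 and Slc39a8), against 28.2% of all 27025 genes with a window (25.7% of the 32851 windows). The call of Mt2 was lost without sham replicate 2 or 3 or I/R replicate 2 (adjusted p up to 0.105). The number of the list's members called was 1 without sham replicate 1, I/R replicate 3 or SBP replicate 1, 2 or 3, with the 6 samples alone, with equal weight per nucleus, without the low filter, with voom weights, with a pseudocount of 5 or with the 10 CPM filter and 0 without sham replicate 2 or 3 or I/R replicate 2.

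Immediate early genes, which respond to stimuli within minutes, rose in 5 of 22 cases (Fos, Atf3, Fosl2, Myc and Fosl1). Fos was at 2.06, 5.24 and 9.52 CPM in sham and 11.1, 57 and 25.6 CPM in I/R (log2 fold change 2.18 ± 0.59 (SE), adjusted p = 0.0425), and Fosl2 at 21.5, 13.1 and 20.5 CPM and 32.9, 67 and 56.8 CPM (log2 fold change 1.43 ± 0.29 (SE), adjusted p = 0.0159). I/R replicate 2 was highest in both, and the lowest I/R sample of Fos was close to the highest sham sample. In the heat shock and unfolded protein list 4 of 33 rose (Asns, Sdf2l1, Pdia4 and Pdia6) and 1 (Ddit3) fell. The disulfide isomerase Pdia4 had a log2 fold change of 1.01 ± 0.25 (SE), adjusted p = 0.0319 and Pdia6 of 0.99 ± 0.26 (SE), adjusted p = 0.0416, with overlap for Pdia6 alone. Ddit3, which encodes CHOP, a factor of endoplasmic reticulum stress, was at 39.7, 44.8 and 53.9 CPM and 18.8, 18.3 and 26.6 CPM (log2 fold change −1.09 ± 0.21 (SE), adjusted p = 0.0134). Among p53 targets 2 of 20 rose (10%) and 1 fell (5%), near the shares over all genes tested. Cdkn1a, the p21 cell cycle inhibitor, was at 12.8, 4.88 and 9.46 CPM and 20.1, 53.8 and 48.5 CPM (log2 fold change 2.03 ± 0.40 (SE), adjusted p = 0.0145), Mdm2, which degrades p53, had a log2 fold change of 0.50 ± 0.14 (SE), adjusted p = 0.0423, and Ccng1, cyclin G1, of −1.22 ± 0.20 (SE), adjusted p = 0.00823. The call of Fos was lost without sham replicate 1, 2 or 3, I/R replicate 2 or 3 or SBP replicate 1, 2 or 3, with the 6 samples alone, with a pseudocount of 5, without the low filter, with voom weights or with equal weight per nucleus (adjusted p up to 0.134). The calls of Fosl2, Ddit3 and Cdkn1a were lost without sham replicate 3 or I/R replicate 2 (adjusted p up to 0.0599). The call of Pdia4 was lost without sham replicate 2 or 3, I/R replicate 1 or 2 or SBP replicate 3 or with the 6 samples alone (adjusted p up to 0.104). The call of Pdia6 was lost without sham replicate 2 or 3, I/R replicate 1 or 2 or SBP replicate 1, 2 or 3, with the 6 samples alone, without the low filter or with equal weight per nucleus (adjusted p up to 0.132). The call of Mdm2 was lost without sham replicate 1, 2 or 3, I/R replicate 1 or 2 or SBP replicate 2 or 3, with the 6 samples alone, without the low filter or with equal weight per nucleus (adjusted p up to 0.139). The counts of immediate early genes called higher were 3 without sham replicate 1 or SBP replicate 2 or 3, without the low filter, with voom weights, with a pseudocount of 5 or with the 10 CPM filter, 2 without sham replicate 2 or with equal weight per nucleus, 1 without sham replicate 3 or I/R replicate 2 and 8 without I/R replicate 1, and of those called lower 1 without sham replicate 2. For heat shock and unfolded protein genes the counts were 1 without sham replicate 2 or SBP replicate 3, 0 without sham replicate 3 or I/R replicate 2, 2 without I/R replicate 1, with the 6 samples alone, with equal weight per nucleus or with the 10 CPM filter and 7 without I/R replicate 3 for higher. For lower they were 0 without sham replicate 3 or I/R replicate 2 and 3 without I/R replicate 3. For p53 targets the counts were 1 without sham replicate 1 or 2 or SBP replicate 3, with the 6 samples alone, with equal weight per nucleus or without the low filter, 0 without sham replicate 3 or I/R replicate 2 and 4 without I/R replicate 3 for higher and 2 without sham replicate 3 or I/R replicate 3 for lower.

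Of 25 hypoxia and angiogenesis genes 2 fell (Vegfa and Vegfb, 8%) and 1 rose (Vegfd, 4%). These shares are near those over all genes tested (5.42% lower and 5.95% higher). Vegfa, the main angiogenic growth factor, was at 556, 427 and 371 CPM in sham and 268, 200.5 and 272 CPM in I/R (log2 fold change −0.86 ± 0.21 (SE), adjusted p = 0.0307). Vegfb, which acts on lipid uptake, was at 46.8, 39.4 and 45 CPM and 20.3, 19.5 and 29.6 CPM (log2 fold change −0.91 ± 0.17 (SE), adjusted p = 0.0125), and Vegfd had a log2 fold change of 0.57 ± 0.16 (SE), adjusted p = 0.0444. Of 20 genes of endothelial activation, 2 rose (10%) and 1 fell (5%), also near the shares over all genes tested. Pdpn, or podoplanin, of lymphatic endothelium and activated stroma, was at 13.2, 10.7 and 8.77 CPM and 25.4, 65.1 and 33.2 CPM (log2 fold change 1.74 ± 0.30 (SE), adjusted p = 0.01). Ednrb, an endothelin receptor, had a log2 fold change of 0.65 ± 0.17 (SE), adjusted p = 0.0418, and F3, tissue factor, of −1.09 ± 0.21 (SE), adjusted p = 0.0142. Notch genes of vessel specification fell in 3 of 20 cases (Dll4, Notch3 and Jag2). Notch3, a receptor of mural cells, had a log2 fold change of −0.85 ± 0.23 (SE), adjusted p = 0.0446, and the ligand gene Jag2 of −0.66 ± 0.17 (SE), adjusted p = 0.0343. The call of Vegfa was lost without sham replicate 1, 2 or 3 or I/R replicate 2, under library size scaling or with equal weight per nucleus (adjusted p up to 0.106). The call of Vegfb was lost without sham replicate 3 (adjusted p = 0.054). The call of Vegfd was lost without sham replicate 1, 2 or 3, I/R replicate 2 or 3 or SBP replicate 1, 2 or 3, with the 6 samples alone, without the low filter, with voom weights, with equal weight per nucleus or without the nuclei richest in UMIs (adjusted p up to 0.163). The call of Ednrb was lost without sham replicate 1, 2 or 3 or I/R replicate 2, without the low filter, with voom weights or with equal weight per nucleus (adjusted p up to 0.126). The call of F3 was lost without sham replicate 3 or I/R replicate 2 (adjusted p up to 0.0612). The call of Notch3 was lost without sham replicate 1, 2 or 3, I/R replicate 2 or 3 or SBP replicate 1, 2 or 3, with the 6 samples alone, under library size scaling, under median-of-ratios scaling, without the low filter or with voom weights (adjusted p up to 0.144). The call of Jag2 was lost without sham replicate 2 or 3, I/R replicate 1, 2 or 3 or SBP replicate 3, with the 6 samples alone, under library size scaling or with equal weight per nucleus (adjusted p up to 0.111). The number of Notch genes called lower was 1 without sham replicate 1, I/R replicate 3 or SBP replicate 3, with the 6 samples alone or under library size scaling and 0 without sham replicate 2 or 3 or I/R replicate 2. Hypoxia and angiogenesis genes counted 0 without sham replicate 1, 2 or 3, I/R replicate 2 or 3 or SBP replicate 1, 2 or 3, with the 6 samples alone, with equal weight per nucleus, without the low filter, with voom weights or without the nuclei richest in UMIs and 2 without I/R replicate 1 for higher. Those called lower were 0 without sham replicate 3, 1 without I/R replicate 2, with equal weight per nucleus or under library size scaling and 4 without I/R replicate 3. Endothelial activation genes counted 1 without sham replicate 1, 2 or 3 or I/R replicate 2, with equal weight per nucleus, without the low filter or with voom weights for higher and 0 without sham replicate 3 or I/R replicate 2 for lower.

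Contractile genes of smooth muscle and myofibroblasts fell in 3 of 18 cases (Smtn, Synpo2 and Myocd) and rose in 2 (Tpm2 and Cald1). Smtn, or smoothelin, was at 542, 540.1 and 462 CPM in sham and 362, 82.3 and 86.7 CPM in I/R (log2 fold change −1.89 ± 0.48 (SE), adjusted p = 0.0344). Synpo2, an actin-bundling protein of striated and smooth muscle, was at 639, 482 and 1011 CPM and 285, 213 and 276 CPM (log2 fold change −1.40 ± 0.24 (SE), adjusted p = 0.0102). Myocd, a coactivator of muscle genes, was at 1112, 798 and 1048 CPM and 587, 314 and 444 CPM (log2 fold change −1.17 ± 0.26 (SE), adjusted p = 0.0221). Cardiomyocytes are known to express all 3 as well. The cardiomyocyte marker sum, given above, was lower in every I/R sample, and its part in these results was not tested. The smooth muscle and pericyte sum without Abcc9 overlapped between the groups. Acta2, smooth muscle actin, the classical mark of myofibroblasts, overlapped between the groups, at 5.25, 10.9 and 11.9 CPM and 17.6, 10.7 and 8.27 CPM (log2 fold change 0.35 ± 0.36 (SE), adjusted p = 0.56). The pericyte gene Abcc9, also a cardiomyocyte channel subunit, was at 266, 282 and 307 CPM and 173, 90.5 and 146 CPM (log2 fold change −1.10 ± 0.23 (SE), adjusted p = 0.0171). Cdh19, a cadherin of Schwann cells, had a log2 fold change of −0.79 ± 0.22 (SE), adjusted p = 0.0456. The call of Smtn was lost without sham replicate 1, 2 or 3, I/R replicate 2 or 3 or SBP replicate 3 or with the 6 samples alone (adjusted p up to 0.114). The call of Myocd was lost without sham replicate 1 or 3 or I/R replicate 2 (adjusted p up to 0.0805). The call of Abcc9 was lost without sham replicate 3 (adjusted p = 0.0691). The call of Cdh19 was lost without sham replicate 1, 2 or 3, I/R replicate 1 or 2 or SBP replicate 2 or 3, with the 6 samples alone, under library size scaling, without the low filter, with voom weights or with equal weight per nucleus (adjusted p up to 0.133). The number of contractile genes called lower was 1 without sham replicate 1 or 3 or I/R replicate 2. Those called higher numbered 1 without sham replicate 1 or 2 or I/R replicate 1, with the 6 samples alone or with voom weights and 0 without sham replicate 3 or I/R replicate 2 or with equal weight per nucleus.

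The 10 genes with the highest mean level were Malat1, a nuclear noncoding RNA, Ttn, Ryr2, Myh6, Cacna1c, Dmd, Pde4d, Slc8a1, Zbtb20 and Fhl2. Malat1 was at 93957, 81305 and 95002 CPM in sham and 80590.0, 64498 and 83005 CPM in I/R, with I/R replicate 1 below every sham sample but sham replicate 2 within the I/R range (log2 fold change −0.25 ± 0.22 (SE), adjusted p = 0.495). The calcium release channel gene Ryr2 was at 9211, 5704 and 8744 CPM and 6110.1, 3909 and 4131 CPM (log2 fold change −0.74 ± 0.22 (SE), adjusted p = 0.0621), with I/R replicate 1 above sham replicate 2. Cacna1c, the L-type calcium channel, was lower in every I/R sample, at 7009.5, 5686 and 5902 CPM and 4514, 4390.0 and 2888 CPM, and was not called (log2 fold change −0.68 ± 0.21 (SE), adjusted p = 0.0626). Slc8a1, the sodium-calcium exchanger, was at 6579.9, 4231 and 4068 CPM and 4501, 3096 and 2202 CPM (log2 fold change −0.63 ± 0.27 (SE), adjusted p = 0.154), also with overlap. Pde4d, a phosphodiesterase, was at 4522, 4283 and 7017 CPM and 3362, 2422 and 6353 CPM (log2 fold change −0.46 ± 0.37 (SE), adjusted p = 0.441). Dmd, the dystrophin gene, was at 5424, 3820.3 and 6082 CPM and 3719, 4812 and 5784 CPM (log2 fold change −0.09 ± 0.23 (SE), adjusted p = 0.827), with a sign that turned positive under library size scaling (0.03) and without sham replicate 3 (0.04) or I/R replicate 1 (0.07). Zbtb20, a transcriptional repressor, was at 4447, 4515 and 5325 CPM and 3381, 2631 and 3669.9 CPM (log2 fold change −0.57 ± 0.16 (SE), adjusted p = 0.0486). The call of Zbtb20 was lost without sham replicate 1, 2 or 3, I/R replicate 1 or 2 or SBP replicate 1, 2 or 3, with the 6 samples alone, with a pseudocount of 5, under library size scaling, under median-of-ratios scaling, without the low filter, with the 10 CPM filter, with equal weight per nucleus or without robust variances (adjusted p up to 0.15). Of these 10 genes 3 were called, Ttn, Fhl2 and Zbtb20, all lower in I/R.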

How the data were processed

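Single-nucleus libraries (10x Chromium 3' v3) of 9 mouse hearts were used, of which 3 sham and 3 I/R were compared. Per the labels' processing notes the authors used Cell Ranger 4.0 with STAR, Seurat 3.2.0 and build GRCm38, while the study's methods name another Cell Ranger version. They down-sampled the libraries, kept nuclei by their number of genes and mitochondrial share, and removed mitochondrial genes. The deposited values are natural log values, ln(1 + UMIs per 10000 UMIs of the nucleus). UMIs per nucleus were recovered from these values (at least 99.99936% of them whole within 0.1 UMI), summed over all nuclei of a sample and scaled to CPM with TMM factors (trim 0.3 and 0.05). Doublets were not removed, and the tables hold fewer nuclei than the study states.

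Genes were tested when they reached the CPM of 10 UMIs in the median library (0.717 CPM) in at least 3 of the 9 samples, with at least 15 UMIs in all. The test was limma 3.58.1 in R 4.3.3 (trend and robust variances) on log2(CPM + 1), fitted to the 9 samples together, and p-values were adjusted by Benjamini-Hochberg over every gene tested. Marker lists were compared with an exact permutation test. Depth was 10329520 to 18205985 UMIs per sample, and a floor of 3 UMIs was used where sham held none, which covers counting error only.

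The genes named are the 12 largest increases and 12 largest decreases among called genes without overlap and with at least 20 CPM in the higher group, up to 3 called members of each list by size of change with at least 10 CPM, 22 genes fixed by name and the 10 highest genes, 138 in all. Further members are named only as part of a list's count, and a few genes are not reported here. The genes and lists were chosen with earlier results of these data known. Promoter windows are from RefSeq. The alternatives covered the samples in the fit, pseudocount, scaling, filter, weights, nuclei used, pairing, robust variances and each library left out.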

Additional observations from a re-analysis of the deposited data

How the results depend on the processing

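With only the 6 sham and I/R samples in the fit, 603 genes were called higher and 437 lower, and the cause was not tested. Library size alone as the scaling moved the median log2 fold change of all genes by 0.112 and gave 500 lower calls, with 71.1% of the calls higher against 52.3% in the fit reported. Without single libraries the calls ranged from 249 to 1493 higher and from 155 to 1056 lower, and 395 to 1541 of the genes called were called again. Under the other settings 1017 to 1813 were called again. Same-numbered samples of different groups deviated with correlations of −0.398 to 0.287, so the numbers were not taken as pairs, and the fit with a replicate block called 818 genes higher and 703 lower. That fit ended the calls of Per2, Ifi207, Actc1, Vegfd, Bank1, Cxcl3, Pdia4, C3ar1, Mdm2, Mt2, Ednrb, Smtn, Nlrp3, Cacna1g, Ninj1, Fos, Jag2, Zbtb20, Notch3 and Vegfa. None of the 124 named genes that were called changed direction. Of their 2598 alternative values 2246 stayed past the threshold and 352 did not. For Spp1, Gpnmb and Chil3, voom weights were the one alternative that ended the call. Among the 14 not called, the log2 fold change turned positive for Dmd under library size alone (0.034), without sham replicate 3 (0.045) and without I/R replicate 1 (0.073), for Nppa without sham replicate 3 (0.065), and for Myh7 without sham replicate 1 (0.27), I/R replicate 1 (0.56) and I/R replicate 3 (0.14). Over the single libraries left out, the range was −0.29 to 0.07 for Dmd, −0.96 to 0.07 for Nppa and −1.28 to 0.56 for Myh7. The filter left 7691 genes of the tables untested.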
